A study of Mus musculus with 57 samples.

Results

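The long non-coding RNAs Malat1, Neat1, Gas5, Snhg1, Snhg12 and Snhg8, were followed through single prostate cancer cells sorted from mouse bone as dormant or proliferating. They were chosen by name as nuclear and growth-arrest RNAs, and all 6 were present in the table of all cells, among 12887 genes beside the spike-ins. The choice was made with the dormant against proliferating contrast of these data known, so differences between the states are given below as a description, without a p-value for any of the 6.

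The cells were RM1, a prostate cancer line of the mouse that had been given the fluorescent protein eCFP and the luciferase Luc2. They were stained with PKH26, a dye that sits in the membrane, before injection into the heart of mice of strain C57BL/6. All groups share this line, label and strain, and the labels used here give no age for the mice. Dividing cells dilute the dye, so PKH26+ cells were sorted as dormant and PKH26- cells as proliferating, between day 13 and day 26 after injection by the labels of the mice. Dormant cells numbered 28 and proliferating cells 29. Each state came from 6 mice, out of 8 in all, of which 4 (mice 360, 369, 452 and 1185) gave cells of both states. The mouse is the replicate. Mouse 244 gave 1 dormant cell and mouse 288 gave 1 proliferating cell, so their means rest on that cell. The series text states 32 proliferating cells, of which 29 were analysed here. Libraries were made in batches that each held a single state. Batch therefore cannot be told apart from state.

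Between 945351 and 5306777 reads and between 2397 and 10507 genes above 0 were recovered per cell. The median number of genes was 7236 in dormant and 7647 in proliferating cells. Cells were divided into classes by their own transcripts. Low-label cells had eCFP under 100 normalised reads, and leukocyte-rich cells had at least 5 of 18 pan-leukocyte genes above 0. All 6 low-label cells were sorted as dormant (from mice 244, 360, 369 and 1184) and all 6 were also leukocyte-rich. The remaining dormant cells were 8 labelled leukocyte-rich and 14 labelled leukocyte-poor cells, and the proliferating cells were 4 leukocyte-rich and 25 leukocyte-poor. In low-label cells the 18 pan-leukocyte genes summed to between 28923 and 74092 normalised reads, against 10.7 to 14146 in labelled leukocyte-rich dormant cells, 0 to 405 in leukocyte-poor dormant cells, and 0 to 1373 in leukocyte-poor and 5.96 to 1358 in leukocyte-rich proliferating cells. Spi1, Coro1a, Vav1, Ikzf1, Cd37, Cd48 and Was were at 0 in all 14 leukocyte-poor dormant cells. The summed tumour markers (eCFP, Luc2 and the keratins Krt8 and Krt18) reached at most 319 in low-label cells and were at least 4379 in every other cell. The 6 low-label cells thus go against the label of an RM1 cell, and the state difference of each RNA is given below with and without them. The nearest genes, the values per kilobase, rho among the host RNAs and the relations tested over mice rest on all cells only. So do the splits by Mki67, by number of genes and by mitochondrial share.

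Malat1 is an abundant RNA held in the nucleus, where it gathers in nuclear speckles beside sites of splicing. Neat1, transcribed from a neighbouring gene, is the scaffold around which proteins assemble into paraspeckles. Gas5, Snhg1, Snhg12 and Snhg8 are host genes: small nucleolar RNAs (snoRNAs), which guide the modification of ribosomal RNA, are cut from their introns, and the spliced host RNA is left over. Host RNAs of this kind often start with a run of pyrimidines, the TOP motif that ties translation of ribosomal protein mRNAs to growth signalling through mTOR, and are cleared by nonsense-mediated decay when they are translated. Gas5 was named for its accumulation in growth-arrested cells.

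On GRCm38 (GENCODE M21), Malat1 lies on chromosome 19 at 5795690 to 5802672, minus strand, and Neat1 on the same strand at 5824708 to 5845478. Both are annotated as lincRNA, with exons that cover 6983 and 20771 bases in union. Gas5 lies on chromosome 1 at 161034422 to 161038539, plus strand, a processed transcript with 9 annotated snoRNA loci inside it. Its start overlaps the start of the protein-coding gene Zbtb37, which runs the other way on the minus strand. Snhg1 lies on chromosome 19 at 8723475 to 8726443, plus strand, a processed transcript with 8 snoRNA loci. Snhg12, a lincRNA on chromosome 4 at 132308623 to 132311024, plus strand, holds 4, and Snhg8, a processed transcript on chromosome 3 at 123507552 to 123508404, minus strand, holds 1. The snoRNA genes had no rows of their own in the table of all cells.

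The start-site windows below, 60 bases with 30 before the annotated start, are shown for the pyrimidine run at the start, which was longer than in Malat1 at each host start but the first of Gas5. Each reads 5′ to 3′ along the gene, from RefSeq on GRCm38.p6. Capitals mark the unbroken run of C and T that touches the annotated start, including bases just before it. Matching by symbol gave windows for 5 of the 6 genes, 2 of them for Gas5, and Neat1 is named only.

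Malat1, chr19:5802643-5802702, minus strand: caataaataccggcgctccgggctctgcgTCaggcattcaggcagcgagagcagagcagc
Gas5, first start, chr1:161034571-161034630, plus strand: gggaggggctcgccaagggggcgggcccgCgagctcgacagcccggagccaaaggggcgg
Gas5, second start, chr1:161035136-161035195, plus strand: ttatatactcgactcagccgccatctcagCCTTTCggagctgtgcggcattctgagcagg
Snhg1, chr19:8723457-8723516, plus strand: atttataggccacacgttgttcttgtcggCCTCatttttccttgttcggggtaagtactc
Snhg12, chr4:132308648-132308707, plus strand: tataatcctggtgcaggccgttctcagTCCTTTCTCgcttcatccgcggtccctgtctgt
Snhg8, chr3:123508307-123508366, minus strand: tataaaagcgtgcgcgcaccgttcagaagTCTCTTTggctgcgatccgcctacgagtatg

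The run was 9 bases long in Snhg12, 7 in Snhg8, 6 at the second start of Gas5, 4 in Snhg1, 2 in Malat1 and 1 at the first start of Gas5. In each window the run began before the annotated start, so these lengths exceed the run in the RNA itself. At the first start of Gas5 the run lay wholly before the start. A run of at least 6 was present in 3 of these 6 windows and in 10.7% of 32851 windows of the same length from all genes. A run of at least 4 was present in 4 of 6 and in 23.8% of all windows. The run was read on the gene's own strand, and a match is a description of these letters, not a test of how the RNAs are controlled.

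Per kilobase of exon union, Malat1 had the highest median of the 6, at 1092 normalised reads per kilobase in dormant and 715 in proliferating cells. Gas5 followed with 369 and 385. Snhg1 (59.9 and 107) and Snhg8 (54.5 and 52.1) came next, and in dormant cells these 2 did not differ beyond their spread over cells. Snhg12 (8.68 and 15.9) and Neat1 (6.02 and 2.55) were the lowest, and both were at 0 in many cells. This order depends on the divisor. The exon union of Snhg1, Snhg12 and Snhg8 spans the whole annotated gene, with the stretches that hold snoRNAs, which lowers their values per kilobase. Without division Malat1 still had the highest median in both states. Neat1 (125 and 52.9) then lay above Snhg8 (46.5 and 44.4) and Snhg12 (20.8 and 38.1).

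Malat1 was above 0 in all 57 cells, but its lower range differed widely between the states. In dormant cells the lowest, median and highest values were 353, 7625 and 42621 normalised reads, and in proliferating cells 1.95, 4990 and 50422. The upper ends were alike and the low end was not: 8 of 29 proliferating cells lay under 200 normalised reads (27.6%, exact Clopper-Pearson 95% interval 12.7 to 47.2%) and 0 of 28 dormant cells did. A count of 0 of 28 allows a share of up to 12.3% by the same exact interval, and of up to 10.7% by the limit of 3 counts. The value of 200 was chosen after the values were seen, with 121 just below it and 237 just above, and the intervals cover counting error only, with cells taken as independent of their mouse.

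Each of the 6 mice with proliferating cells held at least 1 of these Malat1-low cells. There was 1 of 2 in mouse 268, 1 of 1 in mouse 288, 1 of 3 in mouse 360, 3 of 13 in mouse 369, 1 of 6 in mouse 452 and 1 of 4 in mouse 1185. In the cells of mice 268 and 1185 the value rested on 1 and 2 recovered reads. The other 6 held between 7 and 54 recovered reads of Malat1.

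The other cells of the same mice held far more Malat1. In mouse 360 the proliferating cells held 79.0, 4328 and 8525 normalised reads, and the dormant cells, both low-label, 353 and 15517. In mouse 452 the proliferating cells spanned 101 to 30935 with a median of 10335, and the dormant cells held 3669, 5340 and 14143. In mouse 1185 the proliferating cells held 1.95, 620, 8579 and 17277, and its 11 dormant cells spanned 502 to 25154 with a median of 3941. The cells of the states overlapped in each of these mice, and the lowest cell of each was a proliferating one. Mouse 369 showed the same arrangement, with 12.1, 4990 and 50422 as lowest, median and highest of 13 proliferating cells, and 879.5, 7625 and 18452 in 6 dormant cells.

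From here on levels are given per mouse, as the average over its cells of log2(value + 1). A difference of 1 on this scale is a factor of 2 for a gene well above 1. Malat1 means in dormant cells were 13.30 in mouse 244, 12.67 in 452, 12.59 in 369, 12.25 in 1184, 12.09 in 1185 and 11.19 in 360. The proliferating means were 12.07 in mouse 452, 10.81 in 369, 10.49 in 360, 9.50 in 1185, 7.88 in 268 and 5.62 in 288. The dormant means were gathered high and the proliferating means spread downward, and they overlapped through mouse 360. Malat1 averaged 12.35 ± 0.70 (SD, n = 6 mice) in dormant and 9.39 ± 2.32 (SD, n = 6 mice) in proliferating cells, a difference of 2.95 (SE 0.76).

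**Figure D1:**
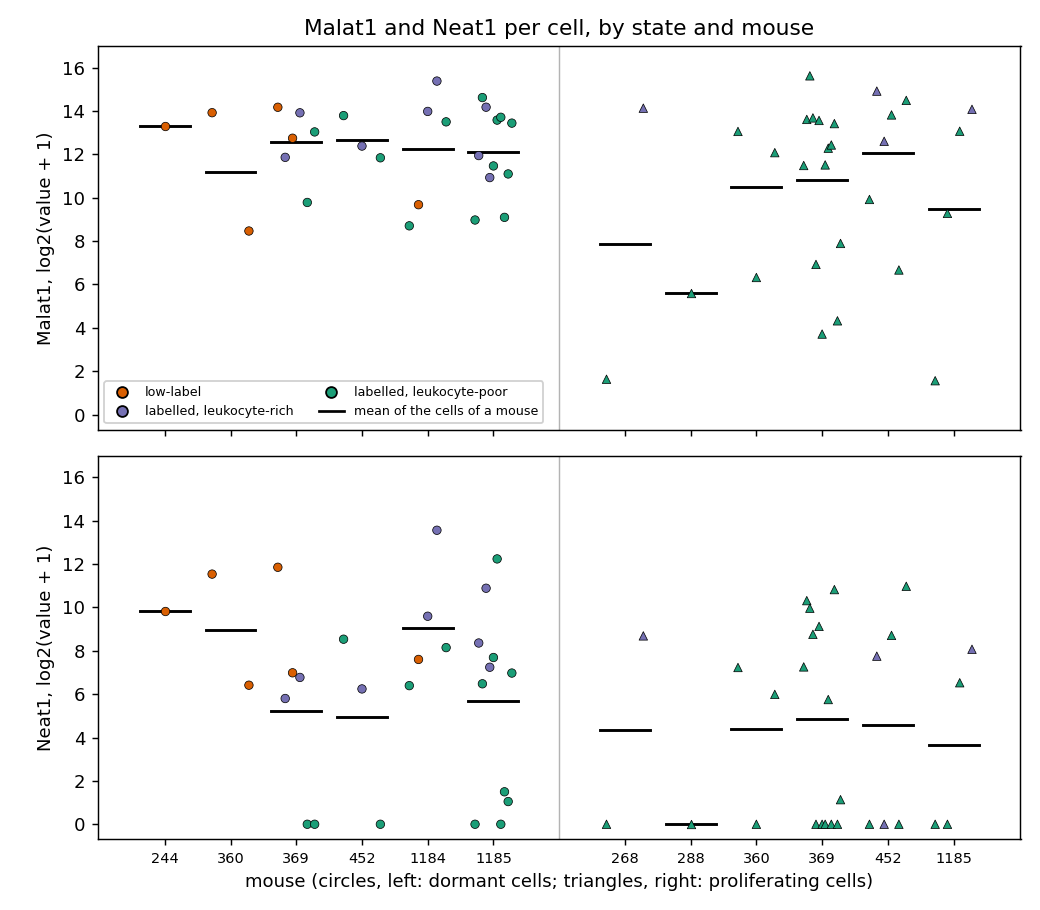
Malat1 (top) and Neat1 (bottom) as log2(normalised value + 1) in each of 57 cells, by mouse, with dormant cells as circles on the left and proliferating cells as triangles on the right. Colour gives the class of the cell and bars the mean of a mouse; Malat1 reaches under 200 normalised reads only on the proliferating side, where 8 of 29 cells lie.

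No gene passed in the comparison that holds these means. limma called 0 of 11843 genes at a Benjamini-Hochberg adjusted p of 0.05 over all mice, that is 0%, and 0 of 11579 (0%) within the 4 mice with both states, the smallest adjusted p being 0.437 and 0.535. None of the 6 RNAs was therefore called. At an unadjusted p of 0.05, 9.51% of genes over all mice were set apart in either direction (3.28% higher and 6.22% lower in dormant cells) and 9.24% within mice (1.04% higher and 8.2% lower). By DESeq2 on recovered reads 302 genes over all mice (2.55%) and 218 within mice (1.88%) passed adjustment, none of the 6 among them. The contrast was used in choosing the RNAs, and nothing is read from these shares.

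Within the 4 mice that gave both states, the Malat1 mean was higher in dormant cells in 4 of 4. The differences were 2.60 in mouse 1185, 1.79 in 369, 0.69 in 360 and 0.61 in 452, with a mean of 1.42 (SE 0.48). Over all genes tested within mice the median difference was −0.72, and 3.72% of genes had a difference as large as that of Malat1, against 1.61% over all mice. A mean higher in 4 of 4 mice was found in 1.4% of genes and a mean lower in 4 of 4 in 15.1% (14.8% over all mice).

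Malat1 kept its higher dormant mean without the cells in doubt. Without low-label cells the difference was 3.06 over all mice, with 4 dormant means between 12.09 and 12.89 that all lay above the 6 proliferating means of 5.62 to 12.07. Such a separation was found in 0.207% of genes with these cells left out, and the gap between 12.09 and 12.07 was narrow. Of the 3 mice that then held both states, 3 had the higher dormant mean (by 1.34 in mouse 369, 0.60 in 452 and 2.60 in 1185), as had 8.09% of genes. Without leukocyte-rich cells, which also leaves out every low-label cell, the difference was 3.87 (SE 1.77). Dormant means were 11.10 to 12.81 and proliferating means 1.63 to 11.22, which overlapped. In 0.387% of genes every dormant mean lay above every proliferating mean. The mean of 1.63 rests on 1 cell of mouse 268 with 1 recovered read of Malat1, and was 7.88 with all cells. The dormant means of mice 369, 452 and 1184 then rest on 2 cells each. The means were higher in dormant cells in 3 of 3 mice that still held both states, by 0.60 in mouse 369, 1.59 in 452 and 4.03 in 1185, as were the means of 9.34% of genes. The median difference of all genes over all mice moved from −0.35 to 0.09 and 0.55 in these subsets.

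By class, Malat1 had a median of 8475 normalised reads in low-label cells (353 to 18452), 10401 in labelled leukocyte-rich dormant cells (1949 to 42621) and 6031 in leukocyte-poor dormant cells (416 to 25154). Leukocyte-poor proliferating cells had a median of 2923 (1.95 to 50422), and the 4 leukocyte-rich proliferating cells one of 17604 (6221 to 30935). The leukocyte-rich class thus had the higher median on both sides. All 8 Malat1-low cells were leukocyte-poor, as were 25 of the 29 proliferating cells, so little is read from that count.

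The Malat1 difference was smaller when the cells of a mouse were pooled before the log2 was taken. With the log2 taken after averaging the cells of a mouse, the difference was 1.48 over all mice and 0.13 within mice. On reads summed per mouse and state it was 0.63 with edgeR and 0.76 with DESeq2 over all mice, and 0.40 and 0.41 within mice. Leaving out cells under 5000 genes moved it to 2.22 over all mice and to 1.71 within mice, and mouse 452 then turned to −0.47.

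Malat1 was related to the number of genes detected per cell. Over all 57 cells Spearman's rho was 0.47, over the 28 dormant cells 0.31 and over the 29 proliferating cells 0.64. Among leukocyte-poor cells rho was 0.22 in the 14 dormant and 0.69 in the 25 proliferating cells. Cells of a mouse share their animal, and cells of a state their library batches, so these values are a description. The rank correlation with total reads was 0.02 over the 57 cells, and with the mitochondrially encoded share of reads it was 0.53. The part of genes detected or of the mitochondrial share in the Malat1 difference was not tested.

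The medians of the states stood apart among cells with few genes. Under 7000 genes, the 14 dormant cells had a median Malat1 of 4505 (353 to 18452) and the 12 proliferating cells one of 179 (1.95 to 14448), with 6 of the 12 below 200. At 7000 genes or more, the medians were 11913 in 14 dormant and 10953 in 17 proliferating cells, with 2 of the 17 below 200. The gap in medians lay in the cells with fewer genes, and these splits were not tested. Low-label cells were among the dormant cells on both sides of this limit, most of them under 7000 genes. With mean genes detected added to the model the difference was 3.17 (SE 0.75) over all mice and 1.97 (SE 0.73) within mice. That covariate is 1 mean per mouse and state, so the fit cannot adjust for genes detected among the cells of a mouse.

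The mitochondrial share divided the cells in a like way. In cells with a share under 1%, the median Malat1 was 101 in 9 proliferating and 2274 in 4 dormant cells. In cells with 1% or more it was 9766 in 20 proliferating and 9241 in 24 dormant cells, with every low-label cell among the latter. These limits of 7000 genes and 1% were also set after the values were seen.

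**Figure D2:**
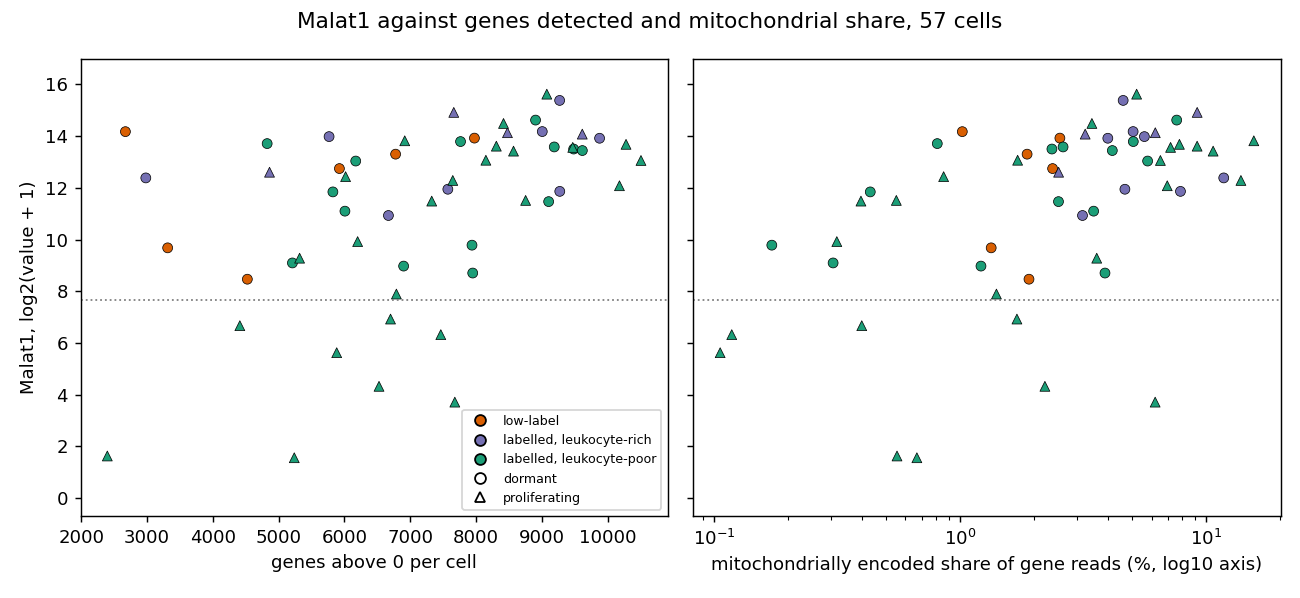
Malat1 as log2(normalised value + 1) in 57 cells against genes above 0 per cell (left) and the mitochondrially encoded share of gene reads on a log10 axis (right); circles are dormant, triangles proliferating cells, colour gives the class, and the dotted line marks 200 normalised reads. The 8 cells below the line are proliferating, leukocyte-poor and hold 2397 to 7678 genes.

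Tested over mice, the relation with genes detected was not established for any of the 6. Over 6 mouse means per state, 12 relations in all, a two-sided exact permutation test gave for Malat1 r = 0.53 (p = 0.285) and rho = 0.54 (p = 0.297) in proliferating cells. In dormant cells it gave r = 0.0072 (p = 0.989, exact) and rho = −0.31 (p = 0.564, exact). After Benjamini-Hochberg adjustment over the 12 relations the values were 0.992 for both r, and 0.988 for both rho. Without the 2 mice farthest from the median number of genes, r was 0.54 in proliferating and 0.60 in dormant cells, so the dormant value rested on mice 452 and 1185. The smallest p of the family was that of rho for Snhg12 in dormant cells (0.75, exact permutation p = 0.106, adjusted 0.817).

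The Malat1-low cells carried the tumour label, but at the median they held fewer genes than the other proliferating cells. Their eCFP was 681 to 2203 normalised reads (median 1188), against 327 to 3230 (median 1492) in the other 21 proliferating cells. Gapdh, of glycolysis, had a median of 18841 in the low cells and 17116 in the others, with highest values of 91617 and 25583. Actb went the other way, with medians of 4807 and 5939. Mki67, a marker of cycling cells, spanned 0 to 422 with a median of 13.5, against 0 to 1399 with a median of 156. Their median number of genes was 6205 against 8309, and the median mitochondrial share 0.611% against 5.22%, with 5 of 8 under 1% against 4 of 21.

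Among the other RNAs, Neat1 was at 0 in 8 of 8 of these cells, but Gas5 was not low. Neat1 was at 0 in 5 of the other 21 proliferating cells, with a median of 152 over the 21. Gas5 had a median of 1357 in the Malat1-low cells and 1481 in the others. Snhg1 had medians of 223 and 441, Snhg8 30.2 and 51.6, and Snhg12 7.93 and 42.8. Gas5 was at least 258 and Snhg1 at least 33.1 in each of the 8, so these hosts were detected where Malat1 was nearly missing.

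Dividing the cells by Mki67 did not separate Malat1. In dormant cells the median was 7625 with Mki67 above 0 and 7716 with Mki67 at 0, 14 cells each. In proliferating cells it was 6427 in 22 cells with Mki67 and 4990 in 7 without.

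Neat1 was detected in 23 of 28 dormant cells (82.1%, exact 95% interval 63.1 to 93.9%) and in 16 of 29 proliferating cells (55.2%, 35.7 to 73.6%). These intervals cover counting error only, take cells as independent of their mouse, and include the low-label cells on the dormant side. Its lowest, median and highest values were 0, 125 and 12052 normalised reads in dormant and 0, 52.9 and 2010 in proliferating cells. More dormant cells held Neat1 reads, and the highest cells were also dormant. The values are of the whole gene and do not separate forms of the RNA. By class, the highest dormant values were 12052 in labelled leukocyte-rich, 4821 in leukocyte-poor and 3690 in low-label cells.

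By mouse, the dormant means of Neat1 were 9.81 in mouse 244, 9.06 in 1184, 8.97 in 360, 5.67 in 1185, 5.23 in 369 and 4.92 in 452. The proliferating means were 4.86 in mouse 369, 4.57 in 452, 4.41 in 360, 4.34 in 268, 3.65 in 1185 and 0 in 288. Every dormant mean lay above every proliferating mean, which was the case for 5 of 11843 genes (0.0422%), though 4.92 and 4.86 were nearly alike. Neat1 averaged 7.28 ± 2.23 (SD, n = 6 mice) in dormant and 3.64 ± 1.83 (SD, n = 6 mice) in proliferating cells, a difference of 3.64 (SE 1.22).

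The 3 highest dormant means came from mice with low-label cells (244, 1184 and 360, while mouse 369 has them too), and the class had the highest median. In mouse 1184, however, the single low-label cell held 193 normalised reads, and without it the mean was higher, at 9.42. All 6 low-label cells held Neat1, at 84.2 to 3690 with a median of 545. All 8 labelled leukocyte-rich dormant cells held it as well, with a median of 239, against 9 of 14 leukocyte-poor dormant cells with a median of 42.4. In proliferating cells, 13 of 25 leukocyte-poor cells held it (median 1.19) and 3 of 4 leukocyte-rich cells (median 241). The pan-leukocyte genes thus moved with Neat1 in both states, and their part in its difference was not tested.

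Without low-label cells Neat1 differed by 2.15 over all mice and 0.23 within mice, with dormant means of 3.14 to 9.42 that overlapped the proliferating means. Without leukocyte-rich cells it differed by 1.28 over all mice and by −1.07 within mice, so the direction turned. Mice 369 and 452 then had the lower mean in dormant cells (−4.86 and −0.65) and mouse 1185 the higher (2.31). The dormant mean of mouse 369 was then 0, from 2 cells. With all cells the within-mouse differences were 4.55 in mouse 360, 2.03 in 1185, 0.39 in 369 and 0.36 in 452, with a mean of 1.83 (SE 1.17), and without mouse 360, whose dormant cells are both low-label, it was 0.93.

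Neat1 was higher in cells with more genes detected. The rank correlation was 0.46 over all 57 cells, 0.25 over the 28 dormant and 0.70 over the 29 proliferating cells. Among leukocyte-poor cells it was 0.71 over the 14 dormant and 0.70 over the 25 proliferating cells. With total reads the rank correlation over leukocyte-poor cells was 0.52 in dormant and 0.16 in proliferating cells.

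Gas5, the host RNA named for growth arrest, was above 0 in every cell and at much the same level in both states. Its lowest, median and highest values were 15.9, 1389 and 4472 normalised reads in dormant and 258, 1447 and 4990 in proliferating cells. The mouse means were 9.59 ± 1.88 (SD, n = 6 mice) in dormant and 10.24 ± 0.60 (SD, n = 6 mice) in proliferating cells, a difference of −0.65 (SE 0.71). The difference was smaller than its standard error, and the means overlapped.

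The low Gas5 values on the dormant side came from cells low in the label. The 6 low-label cells had 15.9 to 2456 with a median of 227, against 765 to 4472 with a median of 1869 in the 22 labelled dormant cells. In mouse 360 the dormant mean was 6.13, from low-label cells with 15.9 and 289, while the other dormant means were 9.36 (mouse 244) to 11.62 (mouse 452). Without low-label cells the difference was 0.54 over all mice and 0.16 within mice, and without leukocyte-rich cells 0.75 and 0.34. The direction of Gas5 thus turned when those 6 cells were left out. Within mice it was −3.30 in mouse 360, −0.71 in 369, −0.01 in 1185 and 0.97 in 452, and the mean of −0.76 (SE 0.70) became 0.08 without mouse 360.

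Snhg1, host of a series of box C/D snoRNAs, was detected in 29 of 29 proliferating and 23 of 28 dormant cells. It spanned 33.1, 318 and 1116 (lowest, median, highest) in proliferating and 0, 178 and 751 in dormant cells. By mouse, the dormant means were 9.25 in mouse 452, 6.62 in 1185, 6.41 in 369, 5.32 in 1184, 3.08 in 360 and 0 in 244. The proliferating means lay closer together, from 6.80 in mouse 360 to 8.84 in mouse 1185, and mouse 452 carried the highest mean of all in its dormant cells.

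The difference of Snhg1 was −2.90 (SE 1.23) over all mice and −1.66 (SE 1.04) within mice, where it was lower in 3 of 4 (−3.75 in mouse 360, −2.39 in 369, −2.22 in 1185 and 1.73 in 452). Without low-label cells it shrank to −0.24 over all mice and −0.25 within mice, and without leukocyte-rich cells it was −0.40 and −0.51. Of the 6 low-label cells 4 were at 0 and the highest held 70.6, while 21 of 22 labelled dormant cells held Snhg1 with a median of 252. Leaving out mouse 244, whose only dormant cell is low-label, moved the difference over all mice to −1.88.

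Snhg12, host mainly of box H/ACA snoRNAs, was lower in dormant cells in 4 of 4 shared mice, by −2.80 in mouse 360, −2.48 in 369, −2.26 in 1185 and −0.12 in 452. A mean lower in 4 of 4 was found in 15.1% of genes within mice. Among dormant cells 18 of 28 held it, and among proliferating cells 23 of 29, with medians of 20.8 and 38.1 and highest values of 227 and 233. Over all mice the means were 2.51 ± 2.09 (SD, n = 6 mice) and 3.22 ± 2.53 (SD, n = 6 mice), a difference of −0.71 (SE 1.26).

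All 6 low-label cells had Snhg12 at 0, which allows a share of up to 45.9% of such cells by the exact interval, and of up to 50% by the limit of 3 counts. Both limits take cells as independent of their mouse. In labelled dormant cells 18 of 22 held it, with a median of 35.4. Without low-label cells the difference over all mice turned to 1.24, and without leukocyte-rich cells to 1.57, while within mice it remained below 0 at −1.09 and −0.75. The comparison over all mice and that within mice thus pointed in opposite directions once the low-label cells were left out.

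Snhg8, host of Snora24, had the smallest difference over all mice when all cells were kept. It was detected in 26 of the dormant and 27 of the proliferating cells, with medians of 46.5 and 44.4 and highest values of 292 and 256. The means were 4.90 ± 0.82 (SD, n = 6 mice) in dormant and 4.63 ± 1.57 (SD, n = 6 mice) in proliferating cells, a difference of 0.27 (SE 1.09) over all mice and −0.34 (SE 1.12) within mice. Low-label cells had a median of 7.18 against 58.2 in labelled dormant cells, so Snhg8 too was lowest in the low-label class. Without low-label cells the difference was 0.92 over all mice and −0.43 within mice, and without leukocyte-rich cells 1.53 and −0.17. Over all mice it was then no longer the smallest, since Gas5 and Snhg1 lay nearer to 0.

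**Figure D3:**
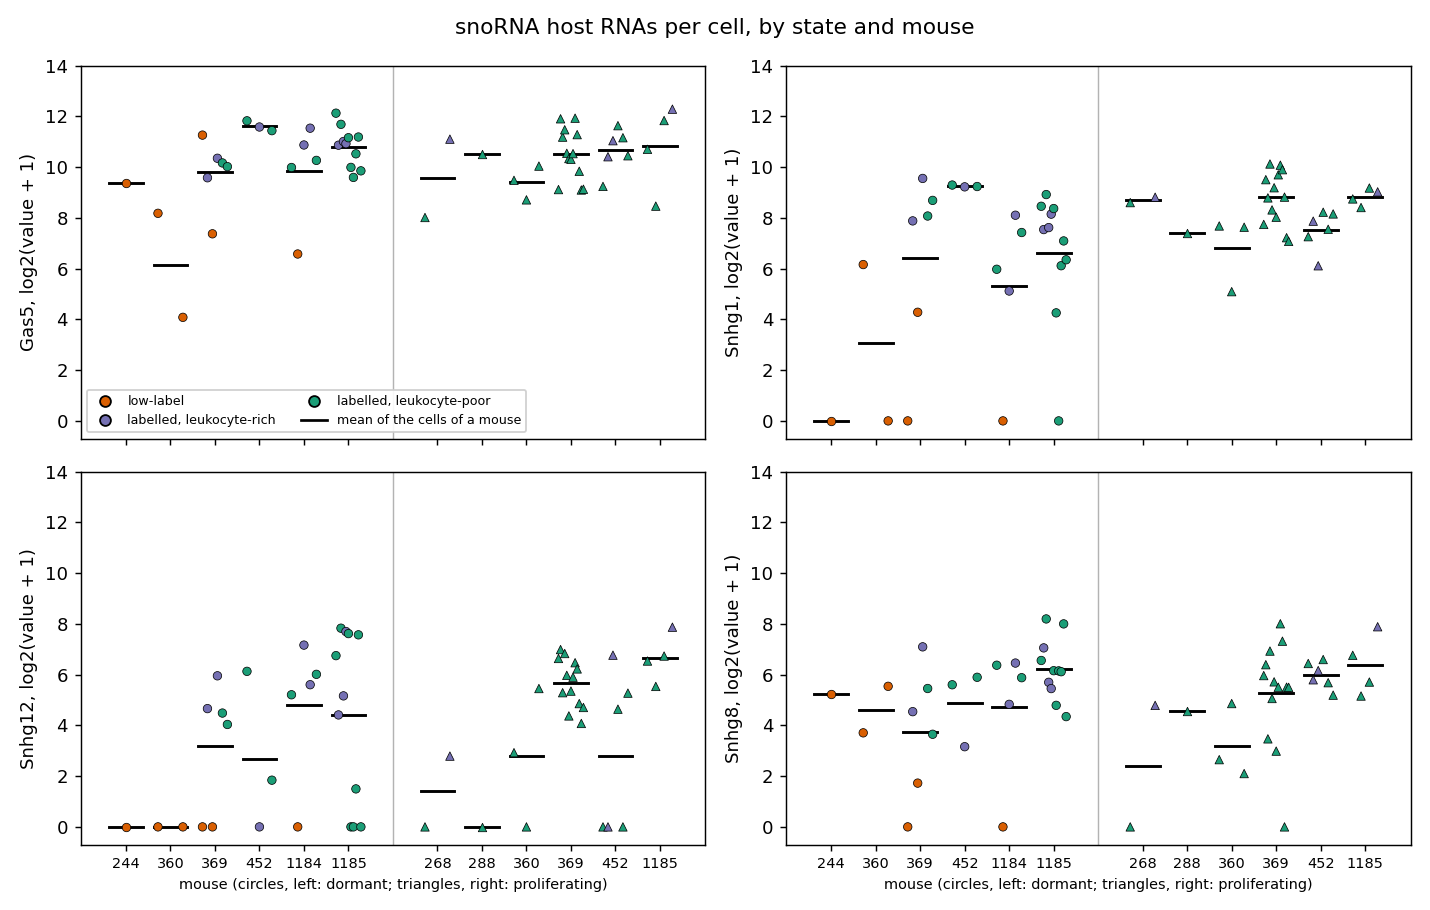
Gas5, Snhg1, Snhg12 and Snhg8 as log2(normalised value + 1) per cell, by mouse, with dormant cells as circles on the left of each panel and proliferating cells as triangles on the right; colour gives the class and bars the mean of a mouse. Most low-label cells sit at the bottom of the dormant side, with Snhg12 at 0 in 6 of 6 and Snhg1 at 0 in 4 of 6.

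**Figure D4:**
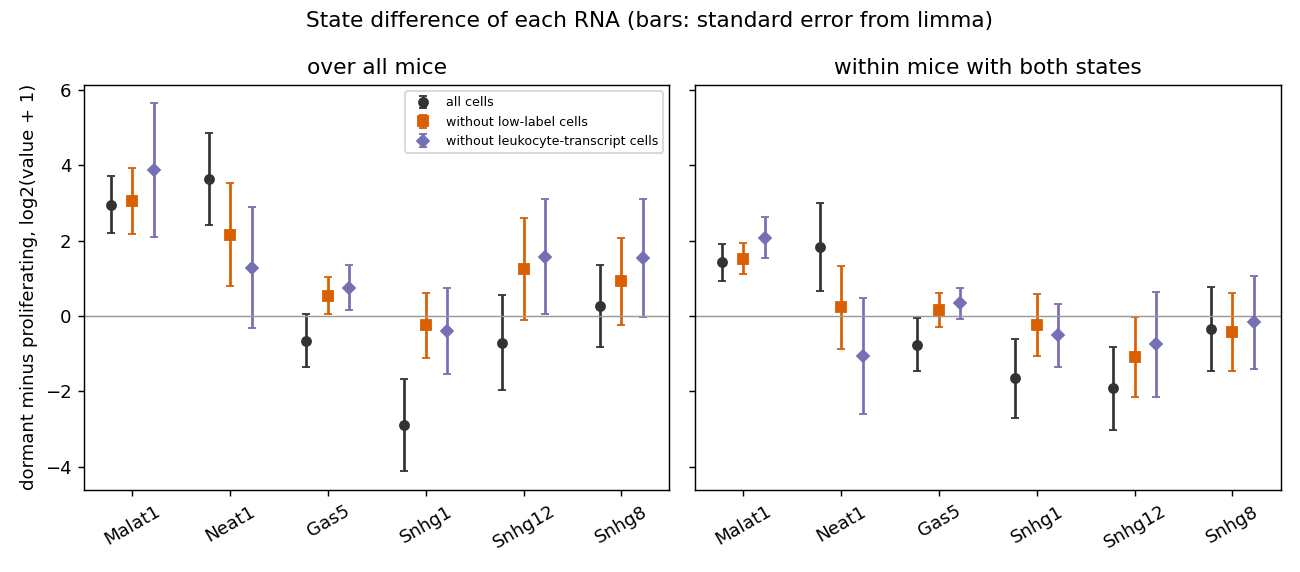
Dormant minus proliferating difference of each RNA in log2(value + 1), with the standard error from limma, over all mice (left) and within mice with both states (right), for all cells and without the cells in doubt. Malat1 lies above 0 in all 6 settings (1.42 to 3.87), Neat1 falls from 3.64 to 1.28 over all mice and from 1.83 to −1.07 within mice, and the host RNAs move upward over all mice once low-label cells are left out.

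Over the 57 cells the nuclear pair ranked most alike, and the hosts ranked partly alike. Malat1 and Neat1 ranked cells alike, with rho = 0.75 over the 57 cells, 0.59 in dormant, 0.84 in proliferating and 0.73 in leukocyte-poor cells. Among the hosts rho over the 57 cells was 0.58 for Gas5 and Snhg1, 0.57 for Gas5 and Snhg12, 0.53 for Snhg12 and Snhg8, 0.52 for Gas5 and Snhg8, 0.51 for Snhg1 and Snhg12 and 0.30 for Snhg1 and Snhg8. Between the pair and the hosts it ran from −0.09 (Neat1 and Snhg8) to 0.36 (Malat1 and Gas5), the last being above the lowest pair of hosts. All these points share their cells, libraries and depth.

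**Figure D5:**
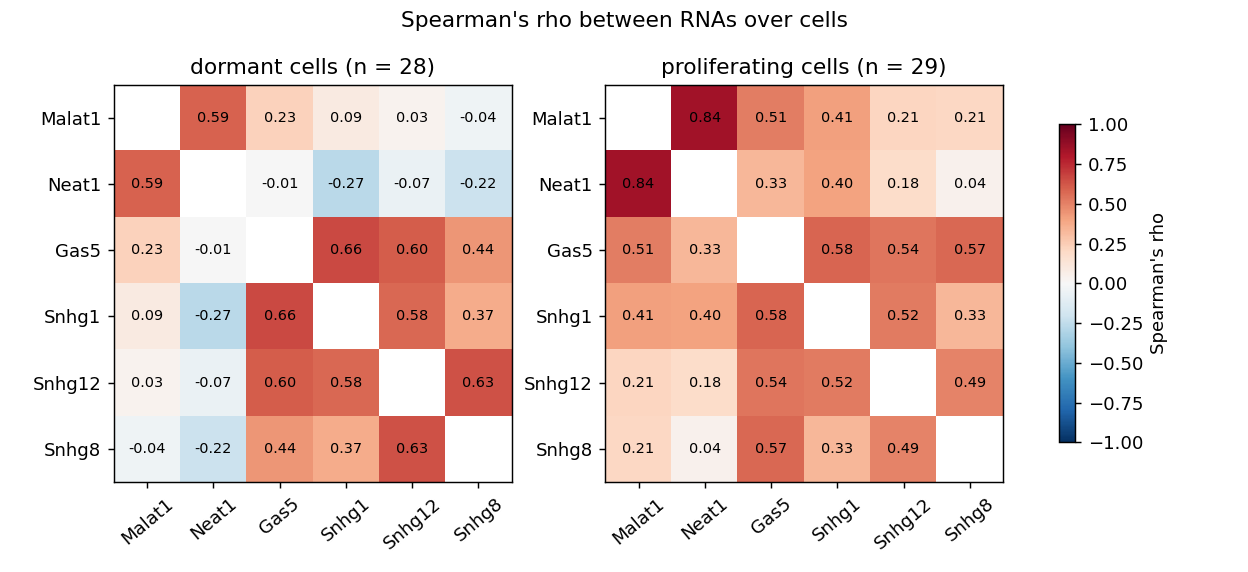
Spearman's rho between the 6 RNAs over 28 dormant cells (left) and 29 proliferating cells (right), colour running from −1 to 1. The Malat1 and Neat1 pair reaches 0.59 and 0.84, and rho among the 4 host RNAs lies between 0.33 and 0.66.

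The genes most like each RNA were taken by rho over the 57 cells among 9207 genes above 0 in at least 20 cells. For Malat1 the first was Gm37376 (rho 0.97), a gene model inside Malat1 on the opposite strand (chromosome 19, 5801941 to 5802393, GRCm38). Whether the counting used strand is not given in the sources used here, so reads of the 2 cannot be told apart. Neat1 (0.75), Gm43238 (0.65), Mapk8ip3 and Nktr (0.63 each) followed. For Neat1 they were Malat1 (0.75), Gm37376 (0.74), Degs1 (0.72), Gm29216 (0.69) and Gm14636 (0.68).

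The genes most like the hosts included other hosts and ribosomal protein genes. Gas5 was most like Zfas1 (0.76), itself a snoRNA host, then 2410006H16Rik (0.65), Snhg5 (0.61), Plk3 (0.59) and Snhg1 (0.58). For Snhg1 the genes included Snhg5 (0.70), Gm14323 (0.66), Rpl11 and Rpl22 (0.65 each), of which Rpl11 and Rpl22 encode ribosomal proteins. Those for Snhg12 included Snhg5 and Snhg15 (0.67 each), 1110038B12Rik (0.66) and Eef1g (0.63), an elongation factor gene. Snhg8 stood nearest to 1110038B12Rik (0.63), Zfas1 (0.61), Cox7a2l and Mt2 (0.54 each) and Alkbh7 (0.53).

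Genes that work with these RNAs were read from fixed lists, and 0 members of any list were called by limma in either comparison. Over all mice 63.1% of all genes had a difference below 0, with a median of −0.35, and within mice 76.6% did, with a median of −0.72. Of 12 further snoRNA hosts measured out of 17 listed, 4 lay above and 8 below 0, with a median of −0.50. Zfas1 differed by −2.83 (SE 1.42) and Epb41l4aos by −2.11 (SE 1.13). Of 10 other long non-coding RNAs measured out of 17, 3 lay above and 7 below 0, with a median of −0.62. Trp53cor1, a p53-induced RNA, differed by −0.99 (SE 0.86), and Jpx, of X inactivation, by −0.84 (SE 0.52).

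Paraspeckle proteins, which bind Neat1, mostly had the lower mean in dormant cells when all cells were kept. Of 15, 14 lay below 0 over all mice, with a median of −1.44, and 15 of 15 within mice, with a median of −1.28. The RNA-binding proteins Taf15 and Matr3 differed by −2.94 (SE 1.14) and −1.80 (SE 0.66), each lower in 4 of 4 shared mice, and 4 of 15 had an unadjusted p under 0.05, against 6.22% of all genes in that direction. Within mice 2 of 15 did, against 8.2% of all genes.

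The snoRNP core proteins, which pack the snoRNAs, had 9 of 10 below 0 over all mice (median −1.04) and 10 of 10 within mice (median −1.47). By limma 2 of 10 over all mice and 6 of 10 within mice were lower at an unadjusted p under 0.05, and 0 were higher. Of all genes, 6.22% and 8.2% were lower at that limit. Nop58, a core protein of box C/D snoRNPs, differed by −2.66 (SE 0.96), and Dkc1, the pseudouridine synthase of the box H/ACA class, by −2.71 (SE 1.06). Factors of nonsense-mediated decay had 8 of 10 below 0 (median −0.77), with Smg8 at −1.67 (SE 1.18) and Upf3b at −1.64 (SE 1.09). Genes of mTOR and TOP mRNA control had 9 of 10 below 0 (median −0.90), with Rptor at −2.04 (SE 1.26) and Mtor itself at −1.86 (SE 1.16). None of these genes passed adjustment by limma.

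Most of these lists did not keep the lower dormant means without the cells in doubt. Without low-label cells 9 of 15 paraspeckle protein genes lay below 0 over all mice, with a median of −0.22, against 45.5% of all genes. The snoRNP core proteins then had 5 of 10 below 0 (median −0.01), as had the genes of mTOR and TOP mRNA control (median 0.10), and nonsense-mediated decay factors had 4 of 10 (median 0.19). The further snoRNA hosts turned to 11 of 12 above 0 with a median of 0.59, and the other long non-coding RNAs had 6 of 10 below 0 with a median of −0.30.

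Without leukocyte-rich cells 31.4% of all genes lay below 0 over all mice, and each of the 6 lists had a median above 0. The medians were 0.23 for paraspeckle proteins, 0.81 for nonsense-mediated decay, 0.90 for mTOR and TOP mRNA control, 1.09 for snoRNP core proteins, 1.14 for the further hosts and 0.47 for the other long non-coding RNAs. Within the 3 mice that still held both states the paraspeckle protein median was −0.89 without low-label cells and −0.08 without leukocyte-rich cells. For snoRNP core proteins it was −0.34 and 0.01. The list medians over all mice thus turned in sign when all leukocyte-rich cells were left out. The median of all genes turned as well, from −0.35 to 0.55, so the turn was not particular to the lists. Paraspeckle proteins and the other long non-coding RNAs lay below that median of 0.55, and the remaining lists above it.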

How the data were processed

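Single-cell cDNA was made with SMARTer chemistry and ERCC spike-ins and sequenced as Nextera XT libraries, per the labels' protocols. STAR, RSEM, GRCm38 and mm10 are named without versions in the submitters' processing notes. The deposited values are a signal, reads normalised by the authors with BASiCS, per the series text, in a table of 57 cells and another of the 48 cells whose 4 mice gave both states. Each value above 0 of a gene is a whole number of steps of its cell (100% of values, tolerance 0.01 reads), which gave the recovered reads. No pair of cells correlated above 0.891, and none was counted as a copy of another.

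The 6 RNAs, the gene lists and the tests were chosen with earlier results of these data known. Differences are dormant minus proliferating, from log2(value + 1) averaged over the cells that a mouse gave of a state, for genes above 0 in at least 6 cells. The fold is understated for low genes, and cells at 0 enter the means. limma 3.58.1 (trend, robust) was fitted across all genes over all mice with no block, and within mice with a mouse block. Pairing comes from the labels (cells of both states from 1 animal). The deviations of paired means correlated by 0.34, 0.17, 0.00 and −0.01 in mice 369, 452, 360 and 1185. edgeR 4.0.16 and DESeq2 1.42.0 on recovered reads, summed for each mouse and state, were alternatives, as were other pseudocounts, filters, scalings, weights, cells and mice. Limma was tested on simulated data. Named genes were the 6 RNAs, the 2 genes of each list with the smallest unadjusted p over all mice, the 5 genes with the highest Spearman's rho for each RNA, and Mki67 and the label genes. Some genes that this rule takes are not reported here. The Malat1-low, 7000-gene and 1% mitochondrial limits were set after seeing the data, and Gapdh and Actb were added as reference transcripts at that point. Nothing in the labels used here names separate cultures of the line. R 4.3.3, Python 3.11.15, pandas 2.3.3, numpy 2.4.6, scipy 1.17.1 and matplotlib 3.10.9 were used. The gene lists were recomputed without low-label and without leukocyte-rich cells after the data were seen.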

Additional observations from a re-analysis of the deposited data

Results flagged for a closer look

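Of 18 groups of mouse means examined for a value far from the rest, 1 was set apart, and chance does so in about 1 of 20. In proliferating cells Neat1 was at 0 in mouse 288, where the other 5 means were 3.65 to 4.86, so that the gap to the nearest mean was 0.751 of the whole range. That mean rests on 1 cell, which held 48.3 normalised reads of Malat1, 5883 genes and a mitochondrial share of 0.106%. Without mouse 288 the Neat1 difference over all mice was 2.91.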

How the results depend on the processing

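limma called 0 genes in every setting run, leave-one-out included (0 to 0 over all mice and within mice). edgeR called 0 (383 and 238 at an unadjusted p under 0.05), and DESeq2 302 over all mice (294 higher) and 218 within mice (140 higher). Rescaling by the median of ratios moved the unadjusted split over all mice from 389 higher and 737 lower to 448 and 486, and the median of all genes from −0.35 to −0.16. For Malat1 the difference was above 0 in 24 of 24 alternatives over all mice and 20 of 20 within mice. It was smallest with edgeR (0.63) and DESeq2 (0.76) over all mice, and within mice with the log2 of the mean value (0.13), edgeR (0.40) and DESeq2 (0.41). Leaving out 1 mouse gave 2.20 to 3.43 and 1.03 to 1.69. The cause of these shifts was not tested. Over the same alternatives Neat1 spanned 1.28 to 4.94 over all mice and −1.07 to 2.54 within mice, Gas5 −0.97 to 0.75 and −1.34 to 0.38, Snhg1 −3.98 to −0.24 and −2.79 to −0.25, Snhg12 −1.91 to 1.57 and −2.86 to −0.75, and Snhg8 −0.33 to 1.53 and −0.94 to 0.08. With the mouse as a replicate block on all 12 means Malat1 differed by 1.42 and 0 genes were called, and no block within mice gave 1.42 and 0 as well. Both differences rest only on the mice that gave both states, so their match was fixed by the design. With 0 genes called by limma in every setting, the calls cannot show an effect of the block. The number of mice (6 a state), 2 means that rest on 1 cell each, and values near 0 for Neat1 and Snhg12 limit what these cells can show.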
